A study of Homo sapiens with 2 samples.

Results

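SR proteins and hnRNPs are the main families of proteins that bind nascent transcripts and steer splicing, and their genes were followed here in HCT116, an epithelial human colon cancer line. The members were chosen by name: rows of the deposited gene tables called SRSF plus a number, or starting with HNRNP, without a hyphen and without the ending P plus digits that marks pseudogene copies. This gave 32 genes of 56586, of which 12 encode SR proteins and 20 encode hnRNPs. Paired-end RNA-seq gave 2 libraries of HCT116 cells, both from cultures in DMEM with 10% fetal bovine serum and no treatment named in the labels; they are called PJ and PF and described by the submitters as biological replicates of a single group. The design also names normal colon libraries, which were not analysed here, so nothing below compares cancer with normal tissue. The values are FPKM, fragment counts scaled to transcript length and to the mapped fragments of the library, each with the 95% bounds the authors deposited.

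SR proteins carry RNA recognition motifs and a tail rich in arginine and serine; bound to exonic enhancers they recruit the spliceosome, and kinases that phosphorylate the tail control their activity and location. hnRNPs coat nascent RNA, and many of them bind silencers and block the use of nearby splice sites, so the level of one family relative to the other can shift splice site choice. Members of both families control their own transcripts by splicing in exons that lead to nonsense-mediated decay. A gene-level FPKM adds up productive and unproductive transcripts, and no isoform is resolved here.

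Both families were abundant. Of the 32 genes, 31 reached 1 FPKM in each library, against 27.9% of all symbols, 27 reached 50 FPKM in each, against 4.17% of all symbols, and 24 reached 100 FPKM in each, against 2.05%. SRSF12 was the exception, at 0.000839 FPKM in PJ and 0.0174 FPKM in PF, with bounds that began at 0 in both. The 12 SR protein genes summed to 1902 FPKM in PJ and 2025 FPKM in PF, and the 20 hnRNP genes to 4822 FPKM in PJ and 5073 FPKM in PF. The cells carried the epithelial markers EPCAM, KRT8, KRT18, KRT19, CDH1 and CLDN7, each above 1 FPKM in both libraries, and few transcripts of other lineages. The summed level of 6 immune markers was 1.73 FPKM in PJ and 0.618 FPKM in PF, that of 4 endothelial markers 0.148 and 0.245 FPKM, that of 5 neuronal markers 1.52 and 1.36 FPKM, and that of 6 fibroblast markers 3.97 and 7.55 FPKM, in PJ and PF in that order. Of the defining markers, LUM and MS4A1 were listed at 0 in PJ.

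Some hnRNP genes have nearly identical copies elsewhere in the genome that can take their reads, and HNRNPK is shown as an example. Its first 150 coding bases (chromosome 9) are set beside the same bases of the copy HNRNPKP4 (chromosome 3). Sequences are GENCODE release 29 transcripts, and capitals mark bases that differ from HNRNPK.
HNRNPK: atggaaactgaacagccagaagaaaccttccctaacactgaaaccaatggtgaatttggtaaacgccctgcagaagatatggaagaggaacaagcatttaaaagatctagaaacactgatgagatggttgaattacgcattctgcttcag
HNRNPKP4: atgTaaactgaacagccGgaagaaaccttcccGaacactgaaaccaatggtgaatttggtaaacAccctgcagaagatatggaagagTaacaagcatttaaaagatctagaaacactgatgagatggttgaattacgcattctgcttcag
HNRNPKP4 differed from HNRNPK at 5 of these 150 bases.

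Among the SR protein genes, SRSF2 (ENSG00000161547.10; hg19 chromosome 17, 74730197 to 74733456) stood highest. The protein binds exonic enhancers and is a common marker of nuclear speckles. It was at 400.2 FPKM in PJ (bounds 398 to 414) and 433 FPKM in PF (431 to 448), a mean of 417 ± 23.2 (SD, n = 2), or 21.0% of the summed SR protein level in PJ and 21.4% in PF. SRSF2 was apart from the next gene in the order, SRSF5 (chromosome 14, 70193617 to 70238722), since it was higher in both libraries and the gap between the means exceeded the difference between libraries of either gene. SRSF5 was at 202 FPKM in PJ (195 to 209) and 297 FPKM in PF (291 to 304).

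From SRSF5 down to SRSF6 no neighbours in the order were apart, while genes further from each other in this stretch were not compared by the rule. SRSF9 was at 228 FPKM in PJ (222 to 235) and 197 FPKM in PF (191 to 203), and SRSF3 at 216 FPKM in PJ (213 to 223) and 191 FPKM in PF (189 to 198). SRSF3 is the smallest of the classical SR proteins and, like SRSF7, also serves mRNA export. SRSF7 was at 195 FPKM in PJ and 166 FPKM in PF, and the ratio of SRSF3 to SRSF7 was 1.11 in PJ and 1.15 in PF. SRSF1 (chromosome 17, 56080854 to 56084707), the founding member of the family and a known proto-oncogene, was at 238 FPKM in PJ (234 to 244) and 149 FPKM in PF (146 to 152). SRSF6 was at 113 FPKM in PJ and 141 FPKM in PF.

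Below these, SRSF4, SRSF8 and SRSF12 were each apart from their neighbours. SRSF4 was at 67.9 FPKM in PJ and 66.8 FPKM in PF, the closest agreement of any SR protein gene above 1 FPKM. SRSF8, whose coding sequence aligned to that of SRSF2 over 455 bases at 80.9% identity, was at 26.1 FPKM in PJ (24.5 to 27.6) and 18.9 FPKM in PF (17.6 to 20.2). SRSF2 was thus 15.4 times SRSF8 in PJ and 22.9 times in PF. SRSF12, the nearest relative of SRSF10 with 83% identity over 300 coding bases, had the values near 0 given above. Of 11 neighbouring pairs in the order of SR protein genes, 4 were apart by this rule.

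**Figure D1:**
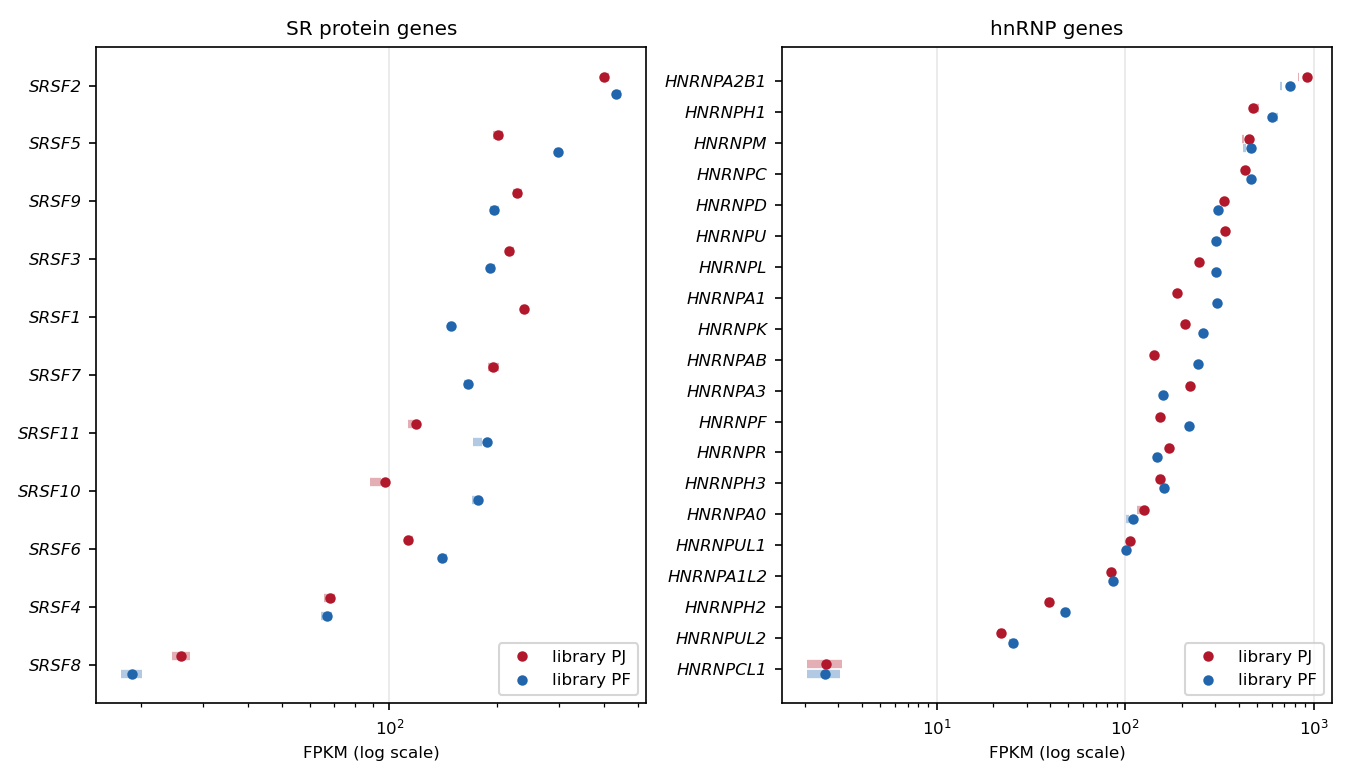
FPKM (log axis) of the SR protein genes (left) and hnRNP genes (right) above 1 FPKM, sorted by mean, in libraries PJ (red) and PF (blue); points are estimates and pale bars the deposited 95% bounds. SRSF12 is left out at 0.000839 FPKM in PJ and 0.0174 FPKM in PF. Levels run from 2.60 FPKM for HNRNPCL1 to 922 FPKM for HNRNPA2B1 in PJ, and several points lie outside their own bars.

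Among the hnRNP genes, HNRNPA2B1 (ENSG00000122566.16; chromosome 7, 26229547 to 26241149) was the highest in both libraries. Its proteins bind splicing silencers and also act on mRNA transport and microRNA sorting. It was listed at 922 FPKM in PJ (bounds 823 to 841) and 753 FPKM in PF (664 to 679), so both estimates lay above their own upper bounds. The mean was 837 ± 119.7 (SD, n = 2), and the gene made up 19.1% of the summed hnRNP level in PJ and 14.8% in PF. It was apart from HNRNPH1 (chromosome 5, 179041179 to 179061785), which binds G-rich elements and was at 475 FPKM in PJ (471 to 513) and 601 FPKM in PF (593 to 650).

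HNRNPM and HNRNPC came next; neither HNRNPH1 and HNRNPM nor HNRNPM and HNRNPC were apart. HNRNPM was at 455 FPKM in PJ (bounds 414 to 429) and 467 FPKM in PF (423 to 438), outside the bounds in both. HNRNPC (chromosome 14, 21677295 to 21737653), which binds uridine tracts and keeps Alu elements from being used as exons, was at 434 FPKM in PJ (431 to 449) and 467 FPKM in PF (464 to 483). HNRNPC was apart from HNRNPD, known as AUF1 and a regulator of mRNA decay, at 336 FPKM in PJ and 311 FPKM in PF. HNRNPU, a nuclear matrix protein, was level with HNRNPD at 337 FPKM in PJ and 303 FPKM in PF.

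From HNRNPU through HNRNPH3 no neighbours were apart. HNRNPL, which binds CA repeats, was at 247 FPKM in PJ and 302 FPKM in PF, and the poly(C)-binding HNRNPK at 209 FPKM in PJ and 260.0 FPKM in PF. HNRNPA1 (ENSG00000135486.11; chromosome 12, 54673977 to 54680872), the best studied silencer-binding hnRNP, was at 189 FPKM in PJ (186 to 196) and 306 FPKM in PF (300 to 320.0). HNRNPAB (chromosome 5, 177631508 to 177638164), a relative of HNRNPD, was at 143 FPKM in PJ (139 to 148) and 243 FPKM in PF (242 to 251). HNRNPA3 was at 220.0 FPKM in PJ and 159.6 FPKM in PF, HNRNPF at 153 and 218 FPKM, HNRNPR at 170.2 and 147 FPKM, and HNRNPH3 at 153 and 161 FPKM, PJ before PF.

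The lower part of the order was firmer. HNRNPA0 was at 126 FPKM in PJ and 110.1 FPKM in PF, both above their upper bounds of 121 and 105 FPKM. HNRNPUL1 was at 105 FPKM in PJ and 101 FPKM in PF, HNRNPA1L2 at 83.7 FPKM in PJ and 85.7 FPKM in PF, and HNRNPH2 at 39.3 FPKM in PJ and 48.2 FPKM in PF. HNRNPUL2 was at 22.0 FPKM in PJ and 25.4 FPKM in PF. HNRNPCL1, an intronless relative of HNRNPC, was lowest at 2.60 FPKM in PJ (2.06 to 3.14) and 2.56 FPKM in PF (2.05 to 3.07). Of 19 neighbouring pairs 7 were apart.

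The balance within sets of paralogues varied. SRSF3 and SRSF7, as given above, were nearly level, and HNRNPH1 was 3.10 times HNRNPF in PJ and 2.75 times in PF. HNRNPH1 was 12.1 times HNRNPH2 in PJ and 12.5 times in PF, although the pair shared 87.7% of 1346 aligned coding bases. HNRNPC was 167 times HNRNPCL1 in PJ and 183 times in PF, with 94.6% identity over 879 coding bases. The hnRNP A genes together summed to 1541 FPKM in PJ and 1415 FPKM in PF, the largest sum of the subfamilies formed here, ahead of hnRNP F and H at 820.1 FPKM in PJ and 1028 FPKM in PF. SRSF4, SRSF5 and SRSF6 summed to 382 FPKM in PJ and 505 FPKM in PF, and SRSF1 with SRSF9 to 467 FPKM in PJ and 346 FPKM in PF.

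The replicates were then set against each other on a log2 scale, as the ratio of PJ to PF after a pseudocount of 1 was added to each FPKM. Each side is 1 library, so the differences have no replicate check and no p-value. In bulk RNA a difference in the share of cells and one in RNA per cell cannot be told apart. Over all symbols at 1 FPKM in both the median ratio was 1.19, a shift of 0.25 on the log2 scale toward PJ. None of the 31 genes was 2-fold apart in either direction, whereas 10.4% of symbols with a mean of at least 1 FPKM were 2-fold higher in PJ and 5.22% 2-fold lower. Among symbols with a mean of at least 50 FPKM, a level that 27 members share, the background was 5.41% higher and 4.06% lower. Once the shift was divided out, 2 members were 2-fold lower in PJ, SRSF10 and HNRNPAB. That division lowers every PJ value, and the share of all symbols under it is not given here, so this count has no background.

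At a threshold of 1.5-fold, chosen after these values were seen, 1 of 31 genes was higher in PJ against 25.9% of symbols, and 4 were lower against 11.0%. Among symbols with a mean of at least 50 FPKM the shares were 18.8% higher and 7.55% lower. The median log2 ratio was 0.02 for SR protein genes and -0.06 for hnRNP genes, against 0.22 for all symbols with a mean of at least 1 FPKM. With the shift divided out the medians were -0.22 and -0.30, so the sign for SR protein genes changes with the scaling. Of the 31 genes, 14 were higher in PJ as deposited and 4 after the shift was divided out, SRSF1, SRSF8, HNRNPA3 and HNRNPA2B1. HNRNPA2B1 was only 0.05 above the shift. A median by definition leaves about as many expressed symbols above it as below. The share of all symbols higher in PJ as deposited is not given here, so the 14 have no background. As deposited, the median absolute log2 ratio was 0.23 over the 31 genes, against 0.34 over symbols with a mean of at least 50 FPKM. Only 27 of the 31 genes reach that mean. The 0.34 includes the shift, since those symbols had a median log2 ratio of 0.22, and no value with the shift divided out is given. The 2 figures therefore do not show that the members agreed more closely.

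**Figure D2:**
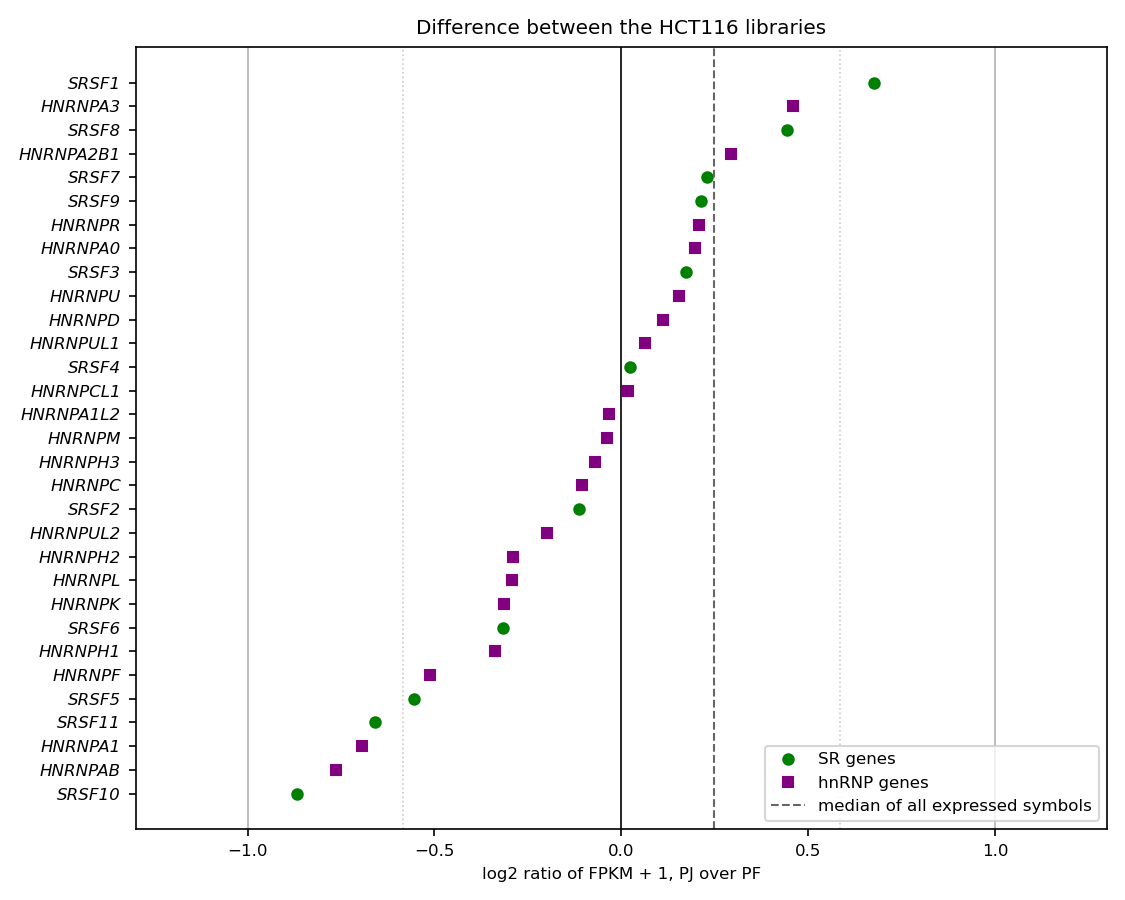
Log2 ratio of FPKM + 1, PJ over PF, for the 31 members with a mean of at least 1 FPKM, sorted; circles are SR protein genes and squares hnRNP genes. The dashed line is the median of all symbols expressed in both libraries (0.25), dotted lines mark 1.5-fold and grey lines 2-fold. Ratios run from -0.87 for SRSF10 to 0.68 for SRSF1, and no member reaches a grey line.

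SRSF1 had the highest ratio, 0.68 on the log2 scale, or 0.43 above the shift. The direction against SRSF9, its closest relative, differed between libraries: SRSF1 was 1.04 times SRSF9 in PJ and 0.757 times in PF. The deposited coordinates place another protein-coding row, RP11-159D12.5, over 1761 bp of SRSF1, on the same strand in GENCODE release 29. That row (ENSG00000266086.1) was at 15.8 FPKM in PJ and 63.5 FPKM in PF, a log2 ratio of -1.94, opposite to SRSF1. Added together the 2 rows had 254 FPKM in PJ and 212 FPKM in PF, a log2 ratio of 0.26, close to the shift, and were 1.11 times SRSF9 in PJ and 1.08 times in PF. FPKM is scaled to transcript length, so a sum over rows of different length is only a rough level. How reads were divided between them was not tested.

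SRSF10, SRSF11 and SRSF5 were the lowest of the SR protein genes on this scale. SRSF10 (ENSG00000188529.9; chromosome 1, 24291294 to 24307417), a splicing regulator that turns repressor when dephosphorylated under heat stress, was at 96.9 FPKM in PJ against bounds of 88.2 to 94.9, with 178 FPKM in PF (170.0 to 180.2). Its log2 ratio was -0.87. SRSF11 (chromosome 1, 70671365 to 70718735) was at 119 FPKM in PJ (113 to 121) and 188 FPKM in PF (172 to 182, below the estimate), a ratio of -0.66. The ratio of SRSF5 was -0.56, short of the 1.5-fold threshold, and that of SRSF6 -0.32. SRSF2 was at -0.11, SRSF4 at 0.02, SRSF3 at 0.17, SRSF9 at 0.21, SRSF7 at 0.23 and SRSF8 at 0.44.

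For hnRNP genes the lowest ratios were those of HNRNPAB, at -0.76, HNRNPA1, at -0.69, and HNRNPF, at -0.51. HNRNPAB and HNRNPD went apart: HNRNPD had a ratio of 0.11, and was 2.35 times HNRNPAB in PJ and 1.28 times in PF. HNRNPA1 and HNRNPA2B1 did so as well, with HNRNPA2B1 at a ratio of 0.29 and at 4.88 times HNRNPA1 in PJ and 2.46 times in PF. With the rows named as copies of HNRNPA1 added to it, these became 1.74 times in PJ and 1.09 times in PF. SRSF1 and HNRNPA1, which have long been studied as antagonists in splice site choice, stood at an SRSF1 to HNRNPA1 ratio of 1.26 in PJ and 0.486 in PF. With the copies added to HNRNPA1 the ratio was 0.450 in PJ and 0.216 in PF, and with the overlapping row also added to SRSF1 it was 0.480 in PJ and 0.308 in PF, below 1 in both libraries. Each of these comparisons rests on 1 library a side, and the sums are rough because they add FPKM of rows that differ in length. All 4 genes of the F and H group were lower in PJ: HNRNPF, HNRNPH1 (-0.34), HNRNPH2 (-0.29) and HNRNPH3 (-0.07). The bounds of HNRNPH3 overlapped between the libraries. Of all 31 members 17 were lower in PJ, and no share of all symbols is given for this direction.

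The other ratios were smaller. HNRNPK was at -0.31, HNRNPL at -0.29, HNRNPUL2 at -0.20, HNRNPC at -0.11, HNRNPM at -0.04 and HNRNPA1L2 at -0.03. On the other side HNRNPCL1 was at 0.02, HNRNPUL1 at 0.06, HNRNPU at 0.15, HNRNPA0 at 0.20, HNRNPR at 0.21 and HNRNPA3 at 0.46. Together with the SR protein genes, 10 members had ratios between 0 and the shift, and these turn lower in PJ once it is divided out. The share of all symbols in that range is not given here.

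The deposited bounds were narrow, with a median width of 5.56% of the estimate in PJ and 5.27% in PF. They were apart between the libraries for 11 members higher in PJ and 14 lower, while 6 overlapped. Over all symbols with a mean of at least 1 FPKM and a single row, 44.5% had bounds apart with PJ higher and 18.3% with PJ lower. Most of these symbols average under 50 FPKM, a mean that 27 of the 31 members reach, and no share at that level is given here. Deposited bounds hold for 1 library at a time and carry no information on how cultures vary. For 5 of the 31 members, 16.0% being the share among all such symbols, an estimate lay outside its own bounds: HNRNPA2B1, HNRNPM, HNRNPA0, SRSF10 and SRSF11.

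Rows named as copies of members had high summed FPKM beside 3 hnRNP genes. The tables hold 44 such rows, found by a member symbol plus P and digits, and 17 of them reached 1 FPKM in each library. The row HNRPCP, in another spelling and without digits, was not counted. It was at 21.0 FPKM in PJ and 18.2 FPKM in PF, and its relation to HNRNPC was not examined. The 31 copies of HNRNPA1 summed to 340.4 FPKM in PJ and 383 FPKM in PF, or 180.2% of HNRNPA1 itself in PJ and 125% in PF. HNRNPA1P10 (chromosome 19, 11776884 to 11777845), with 99.5% identity over 960 aligned bases, alone gave 209 FPKM in PJ (bounds 164 to 176) and 241 FPKM in PF (186 to 198), both above their bounds. HNRNPA1P7 had 99.1% identity and was at 31.0 FPKM in PJ and 33.3 FPKM in PF. With all rows named as copies added, HNRNPA1 came to 529 FPKM in PJ and 689 FPKM in PF. Its log2 ratio came to -0.38 in place of -0.69, which is no longer 1.5-fold. HNRNPA1L2 was not part of the sum. FPKM is scaled to transcript length, so sums and percentages over rows of different length are rough and do not recover the level of the gene.

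The copies of HNRNPA3 summed to 187 FPKM in PJ and 151 FPKM in PF, of which HNRNPA3P5, 97.5% identical over 829 bases, gave 159.7 FPKM in PJ and 136 FPKM in PF. With copies the ratio of HNRNPA3 was 0.39 in place of 0.46. For HNRNPK the 5 copies summed to 122 FPKM in PJ and 145 FPKM in PF, led by HNRNPKP4, whose first bases are shown above, at 96.4 and 114 FPKM in that order, and the ratio was -0.29 in place of -0.31. SRSF1, SRSF9 and SRSF10 had 1 copy each, none above 1.44 FPKM. How many of these fragments came from transcribed copies and how many from the member genes was not tested. HNRNPA1L2, itself a member, shared 98.4% of 960 coding bases with HNRNPA1 and has the same uncertainty.

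**Figure D3:**
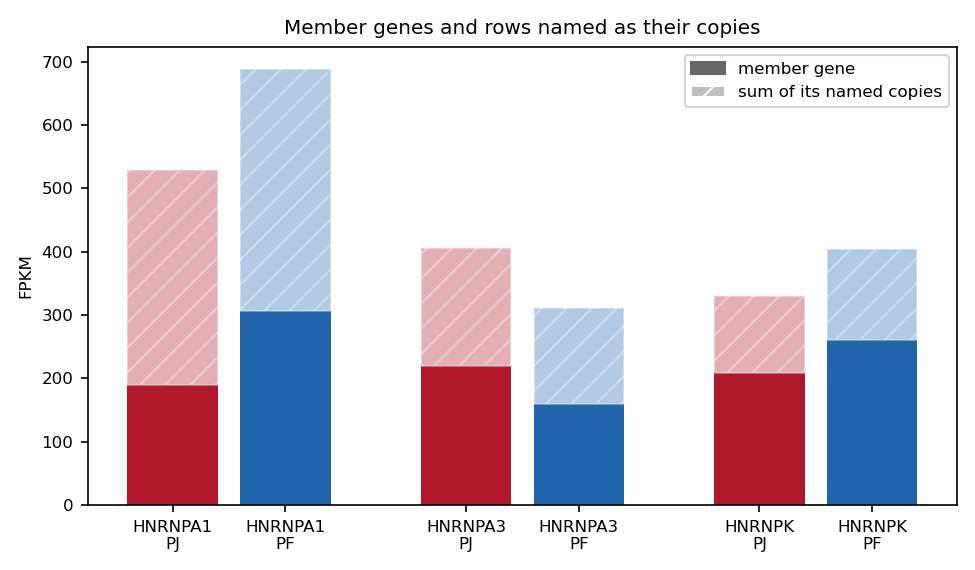
Stacked FPKM (bars from 0) of HNRNPA1, HNRNPA3 and HNRNPK in solid colour and of the rows named as their copies in pale hatching, in PJ (red, left of each pair) and PF (blue). The copies of HNRNPA1 add up to more than the gene itself in both libraries, 340.4 FPKM in PJ and 383 FPKM in PF.

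By the deposited coordinates 17 members overlapped at least 1 other row, 24 rows in all, and 15 of these rows had a mean under 1 FPKM. Besides the row over SRSF1, 3 had a mean of at least 10 FPKM. CBX3, a heterochromatin protein gene, shares 368 bp with HNRNPA2B1 and was at 234 FPKM in PJ and 214 FPKM in PF. RP11-831H9.16 covers all of HNRNPUL2 and was at 27.2 FPKM in PJ and 28.4 FPKM in PF, a little above HNRNPUL2 itself. TGFB1 overlaps HNRNPUL1 by 6012 bp and was at 24.9 FPKM in PJ and 17.1 FPKM in PF. Whether the libraries kept strand is not given in the sources used here, so reads in shared parts cannot be assigned with certainty. The antisense row HNRNPU-AS1 was at 1.83 FPKM in PJ and 1.09 FPKM in PF.

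Promoters were examined as a further property that the choice of members did not use. RefSeq promoter windows (GRCh38.p14) of 300 bases, 250 before and 50 after the annotated start, were found for 30 members; HNRNPA1 and SRSF2 have no entry. Both strands were searched. The CCAAT box, letters CCAAT, was in 13 of 19 hnRNP promoters and 2 of 11 SR protein promoters, against 34.6% of all 35116 windows. The E-box CACGTG was in 6 of 19 hnRNP and 0 of 11 SR protein promoters, against 7.26%. The GC box GGGCGG was in 14 and 5, against 45%, and the ETS core CGGAAG in 7 and 5, against 19.5%. TATAAA was in 5 of 30 member promoters against 11.5%, and TGACGTCA in 0 against 1.85%. A match is a run of letters and not a bound site.

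The windows of the members with the highest and the lowest ratio in each family are shown so that these letters can be read in place; capitals mark matches to any of the motifs searched.
SRSF1, chr17:58007197-58007496, minus strand: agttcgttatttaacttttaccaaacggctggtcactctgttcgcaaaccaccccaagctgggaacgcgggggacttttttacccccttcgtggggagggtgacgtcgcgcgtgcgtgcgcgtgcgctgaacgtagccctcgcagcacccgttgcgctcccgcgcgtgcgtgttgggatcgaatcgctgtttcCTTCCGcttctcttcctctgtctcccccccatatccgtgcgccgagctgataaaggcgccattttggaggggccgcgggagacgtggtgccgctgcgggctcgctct
SRSF10, chr1:23980278-23980577, minus strand: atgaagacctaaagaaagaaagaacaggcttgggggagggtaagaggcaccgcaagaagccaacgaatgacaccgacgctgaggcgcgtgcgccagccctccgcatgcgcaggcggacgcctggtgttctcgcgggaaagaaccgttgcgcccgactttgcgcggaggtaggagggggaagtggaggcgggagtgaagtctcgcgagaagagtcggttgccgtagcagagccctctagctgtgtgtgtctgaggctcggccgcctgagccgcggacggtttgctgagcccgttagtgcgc
HNRNPA3, chr2:177212544-177212843, plus strand: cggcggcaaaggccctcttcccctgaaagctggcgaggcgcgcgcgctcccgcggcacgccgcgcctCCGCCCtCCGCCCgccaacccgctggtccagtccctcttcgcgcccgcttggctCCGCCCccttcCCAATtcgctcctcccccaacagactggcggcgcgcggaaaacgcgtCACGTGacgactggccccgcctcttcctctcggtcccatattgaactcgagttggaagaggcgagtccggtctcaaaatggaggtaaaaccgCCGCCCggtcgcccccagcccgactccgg
HNRNPAB, chr5:178204283-178204582, plus strand: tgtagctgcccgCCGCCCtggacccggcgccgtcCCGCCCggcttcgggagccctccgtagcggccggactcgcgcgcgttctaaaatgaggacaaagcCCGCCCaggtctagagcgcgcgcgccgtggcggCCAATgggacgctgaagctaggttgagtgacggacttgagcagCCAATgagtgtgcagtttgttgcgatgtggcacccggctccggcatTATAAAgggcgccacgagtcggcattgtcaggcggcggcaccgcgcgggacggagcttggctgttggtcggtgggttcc
SRSF1 holds 1 ETS core, SRSF10 none of the motifs searched, HNRNPA3 a CCAAT box, an E-box and 4 GC boxes, and HNRNPAB 2 CCAAT boxes, 3 GC boxes and a TATA box. Median GC content was 63.5% in member promoters and 58.7% in all windows, with SRSF8 lowest of the members at 36.0% and SRSF12 highest at 77.0%.

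Partners of the members were read from fixed lists. Of 15 hnRNP genes that carry other names, 14 reached 1 FPKM in each library, with PTBP1 at 331 FPKM in PJ and 337 FPKM in PF and HNRPDL, the HNRNPD paralogue spelled without the second N in these tables, at 235 and 325 FPKM. PTBP2, the neuronal form, was at 6.64 FPKM in PJ and 16.8 FPKM in PF, a log2 ratio of -1.22, and PCBP3 was lowest at 1.77 FPKM in PJ and 0.910 FPKM in PF. All 16 SR-related factors reached 1 FPKM, led by the splice site factors U2AF2 (212 FPKM in PJ and 195 FPKM in PF) and U2AF1 (198 and 189 FPKM), with LUC7L lowest at 23.9 and 19.8 FPKM. Their median log2 ratio of -0.22 was the lowest of the splicing lists, and SREK1, at 30.3 FPKM in PJ and 79.3 FPKM in PF, had a ratio of -1.36.

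Kinases and importins of SR proteins and hnRNPs were measured in 12 genes, of which 11 reached 1 FPKM in both. The importin TNPO1 was at 62.9 FPKM in PJ and 52.5 FPKM in PF, the kinase DYRK1A at 31.3 and 64.5 FPKM (log2 ratio -1.02), and SRPK3 at 1.57 and 0.129 FPKM. Their median ratio of 0.26 stood at the shift. The 26 spliceosomal snRNP genes, from SNRPD2 at 722 FPKM in PJ and 524 FPKM in PF and SNRPB at 546 and 494 FPKM to PRPF3 at 25.8 and 21.8 FPKM, had a median of 0.22, the same as all symbols. Of the 26, 0 were 2-fold apart and 3 were 1.5-fold higher in PJ.

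**Figure D4:**
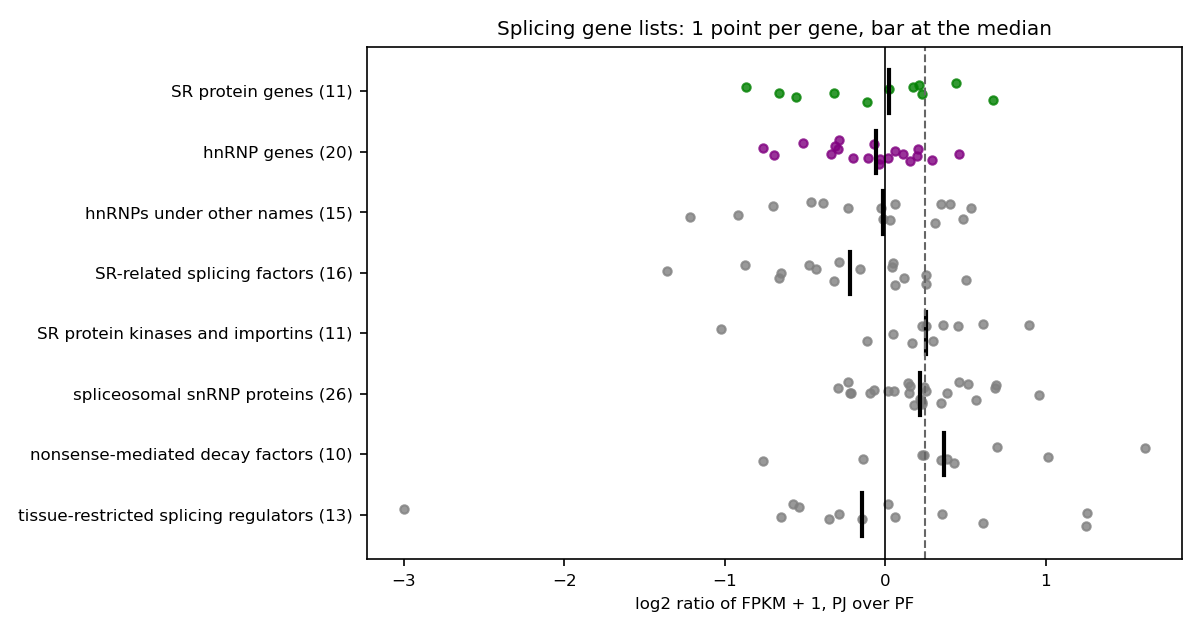
Log2 ratio of FPKM + 1, PJ over PF, for genes with a mean of at least 1 FPKM in each list (number in brackets), with a black bar at the median; the dashed line is the median of all expressed symbols (0.25). SR protein, hnRNP and SR-related genes have medians of 0.02, -0.06 and -0.22, left of the dashed line. Also left of it are hnRNPs under other names (-0.01) and the list labelled tissue-restricted (-0.14). The medians of snRNP genes (0.22) and of kinases and importins (0.26) lie close to the line. That of nonsense-mediated decay factors (0.37) lies to its right.

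Epithelial markers also differed between the libraries. The 6 markers summed to 934 FPKM in PJ and 1566 FPKM in PF, with a median log2 ratio of -0.56. Of the 6, 5 were lower in PJ. KRT8 was at 279.6 FPKM in PJ and 760.4 FPKM in PF, KRT19 at 325 and 306 FPKM, and CDH1 at 1.80 and 21.9 FPKM. The part of this difference in the ratios of SR protein and hnRNP genes was not tested.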

How the data were processed

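RNA of 2 HCT116 libraries (Trizol, Illumina TruSeq V2, paired ends) was analysed. Per the submitters' processing notes the tools were TopHat2 2.0.8b, TopHat and Cufflinks, and the build hg19. No source used here gives a Cufflinks version or gene annotation. The authors deposited FPKM and its 95% bounds for 56586 genes per library, per the file headers. Absolute depth is unknown, so precision was read from the bounds, together with the spread of 2 replicates. The bounds are an imperfect guide, since 5 of 31 members had an estimate outside its own bounds. Among single-row symbols with a mean of at least 1 FPKM the share was 16.0%. FPKM is scaled to the library total, so a few abundant RNAs can shift all values.

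Status FAIL rows (20 in PJ, 23 in PF, none of them a member) were treated as missing, and rows sharing a symbol were summed; each member has 1 row with status OK in both. Starts are counted from 1. Expressed means 1 FPKM or more in both. Ratios are log2 of FPKM plus 1, PJ over PF, for symbols averaging at least 1 FPKM; no test was run, with 1 library a side. Neighbours in the order of levels were called apart where the higher gene was higher in both libraries and the gap of the means exceeded both genes' difference between libraries. Coding sequences of GENCODE release 29 were matched by identifier, or by symbol for SRSF8, and aligned with BLAST 2.17.0. Protein features were planned and not analysed here. Members, lists and tests were chosen with earlier results of these data known. Every member is named; of each list the 2 highest means, the lowest and up to 3 genes at least 2-fold apart are named, and HNRNPA1 copies, overlapping rows, promoters, ESRP1, SMG1 and other genes outside this rule were chosen after their values were seen. Code counting genes past the fold threshold was tested on simulated data; this checks the code and not the reported counts. Ratios between members with copies or the overlapping row added were chosen after the values were seen. Alternatives were other thresholds, pseudocounts, scalings and row choices. Python 3.11.15, numpy 2.4.6, pandas 2.3.3 and matplotlib 3.10.9 were used.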

Additional observations from a re-analysis of the deposited data

How the results depend on the processing

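The count of 31 expressed members was 31 in PJ alone and 31 in PF alone, and stayed within 1.5 times of that at 0.5 and 10 FPKM. Scaling mattered more. Dividing PJ by the median ratio (1.19), the sum over genes spanning 300 bp or more (1.16) or the upper quartile (1.18) gave 2, 1 and 2 members 2-fold lower in PJ in place of 0. Each of these scalings left 0 members 1.5-fold higher in place of 1, and in the same order they gave 7, 6 and 6 members 1.5-fold lower in place of 4. With the median ratio the bounds were apart for 4 members higher in PJ in place of 11 and for 22 lower in place of 14. The same divisions lower PJ for every gene. Shares over all symbols at these scalings are not given here, so the rescaled counts have no background. The medians of SR protein and hnRNP genes moved by less than the typical SD between the libraries (0.30 on the log2 scale) under each alternative run. Adding HNRPDL and HNRPLL was 1 of these, and 278 of 278 recomputed ratios of single genes also stayed within that SD. This was largely fixed in advance and is no check of robustness. The scalings lower a log2 ratio by at most 0.25, and row and status choices cannot move members with 1 row of status OK. Signs could still change, as for HNRNPD, from 0.11 to -0.14 with the median ratio. Leaving out a library gives no ratio. No paired analysis was possible because the libraries form a single group. Absolute depth is unknown, and relative to their levels HNRNPCL1 and SRSF12 had wide bounds.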

Other observations

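Of 27 genes in a further list of splicing regulators, 13 reached 1 FPKM in each library. The figure of the lists labels them tissue-restricted, which was not checked gene by gene. Of these 13, 2 were 2-fold higher in PJ and 1 was 2-fold lower, against 10.4% and 5.22% of all symbols averaging at least 1 FPKM. The list was led by KHDRBS1, the gene of the RNA-binding protein SAM68, at 144 FPKM in PJ and 176 FPKM in PF and by TIAL1 at 94.7 and 93.3 FPKM. MBNL2, a muscleblind splicing factor gene, was at 1.52 FPKM in PJ and 19.1 FPKM in PF, so that PJ had 0.0796 times the level of PF. The epithelial splicing regulator ESRP2 went the other way, at 23.1 FPKM in PJ and 9.07 FPKM in PF (1.26), as did QKI at 20.6 and 8.08 FPKM (1.25), while ESRP1 was at 16.8 FPKM in PJ and 27.0 FPKM in PF (-0.65). KHDRBS2 was lowest at 0.000761 FPKM in PJ and 0.00128 FPKM in PF.

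All 10 nonsense-mediated decay factors reached 1 FPKM in each library, with a median log2 ratio of 0.37. UPF1, the central helicase, was at 53.2 FPKM in PJ and 32.4 FPKM in PF, SMG5 at 34.1 and 37.6 FPKM, and UPF2 lowest at 10.4 and 8.72 FPKM. SMG9, part of the SMG1 kinase complex, was at 21.2 FPKM in PJ and 6.21 FPKM in PF (1.62), and UPF3B at 22.6 and 10.7 FPKM (1.02), whereas SMG1 was at 11.0 FPKM in PJ and 19.4 FPKM in PF (-0.76). These differences rest on 1 library a side.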
